A study of Mus musculus with 8 samples.

Results

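Matrix metalloproteinases (Mmps), Adamts proteases and tissue inhibitors of metalloproteinases (Timps) were examined in endometrial tumors of 4 mouse models called TPM, TPMCa, TPMR1 and TPK. The members were taken by symbol alone, as every Mmp, Adamts or Timp gene of the deposited count table, and numbered 46 of 24419 gene symbols: 23 Mmp, 19 Adamts and 4 Timp genes. Of these, 40 (18 Mmp, 18 Adamts and 4 Timp genes) had enough counts to be tested among 15875 genes. The 6 that did not were Adamts18, Mmp1a, Mmp1b, Mmp20, Mmp21 and Mmp24. Adamts18 had up to 62 counts in a library (4.09 CPM, in TPK replicate 2), and the other 5 had between 2 and 17 counts in their highest library.

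Bulk polyA RNA was sequenced from 2 libraries per model. The models were started from uterus organoids of CAG-Cas9-EGFP mice and transplanted into the uterus of nude mice, hosts that lack T cells but keep their other tissue. Among the edits of TPM were an sgRNA that targets Trp53 and overexpressed Myc. TPMCa carried a mutant Pik3ca cDNA in addition and TPMR1 an sgRNA to Pik3r1 in addition, whereas TPK, to which Myc was not added, shares the Trp53 sgRNA. The labels describe tumor organoids, while in the methods of the study the RNA is from tumors removed about 2 months after transplantation. Donors and hosts were young adult females. The libraries of a model came from different mice in the study's methods, so the spread between replicates is that between tumors.

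Mmps and Adamts proteases are zinc enzymes that cut the extracellular matrix. Most Mmps are made as inactive proforms, among them collagenases that open fibrillar collagen, gelatinases that cut denatured and basement membrane collagen, stromelysins and matrilysin with a broad range of substrates, and membrane-type enzymes held at the cell surface. Adamts proteases cleave proteoglycans such as aggrecan and versican, or trim procollagen. Timps block the active site of these enzymes, and in the uterus the balance of both takes part in implantation and in the remodelling of the endometrium.

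Members of the gene cluster on chromosome 9 are shown first, since Mmp7 and Mmp13, 2 of the 4 members that passed a test between models, lie at its ends. This cluster spans 427072 bases on GRCm38 (chromosome 9, 7272514 to 7699585) and holds 10 members and no other protein-coding gene in the GENCODE M21 annotation: Mmp13, Mmp12, Mmp1b, Mmp3, Mmp1a, Mmp10, Mmp8, Mmp27, Mmp20 and Mmp7. RefSeq promoter windows were found for 32 of the 46 members. The 250 bases before each annotated start were searched on both strands for the AP-1 motif TGANTCA, the TATA box TATAAA and the GC box GGGCGG. A member was counted if any of its windows held a match, whereas the share over all genes is of single windows. An AP-1 match was present for 8 of the 10 cluster members and for 0 of the 22 other members with a window. Mmp7 and Mmp12 have 2 windows each, of which 1 held it. Of 32851 windows of all genes, 6.75% held one. TATA boxes were present for 7 of the 10 cluster members and 2 of the 22 others (12.4% of all windows), and GC boxes for 0 of 10 and 16 of 22 (32.7% of all windows). Each match is a description of letters and not of a bound site. The 120 bases upstream of the start of 4 cluster genes are given from 5′ to 3′, with AP-1 and TATA matches in capitals, followed by Mmp15, a member outside the cluster, with its GC box in capitals on the reverse strand. The last 28 bases before the RefSeq start of Mmp15 were left off because GENCODE places them inside the gene.
Mmp7 (GRCm38.p6, chr9:7691970-7692089, plus strand): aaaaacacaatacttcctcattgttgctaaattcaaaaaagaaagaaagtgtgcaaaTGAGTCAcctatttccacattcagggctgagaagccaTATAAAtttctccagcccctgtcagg
Mmp13 (GRCm38.p6, chr9:7272394-7272513, plus strand): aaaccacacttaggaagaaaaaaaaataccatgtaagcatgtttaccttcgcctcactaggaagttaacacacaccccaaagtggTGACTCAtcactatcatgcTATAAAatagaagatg
Mmp3 (GRCm38.p6, chr9:7445702-7445821, plus strand): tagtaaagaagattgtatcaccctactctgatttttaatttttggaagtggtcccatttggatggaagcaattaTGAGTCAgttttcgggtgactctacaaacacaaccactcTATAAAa
Mmp10 (GRCm38.p6, chr9:7502222-7502341, plus strand): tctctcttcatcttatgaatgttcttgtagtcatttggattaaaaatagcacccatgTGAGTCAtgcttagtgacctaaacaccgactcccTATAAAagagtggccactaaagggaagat
Mmp15 (GRCm38.p6, chr8:95352148-95352267, plus strand): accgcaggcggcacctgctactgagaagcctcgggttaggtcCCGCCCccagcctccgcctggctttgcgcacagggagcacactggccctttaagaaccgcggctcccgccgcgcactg

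**Figure D1:**
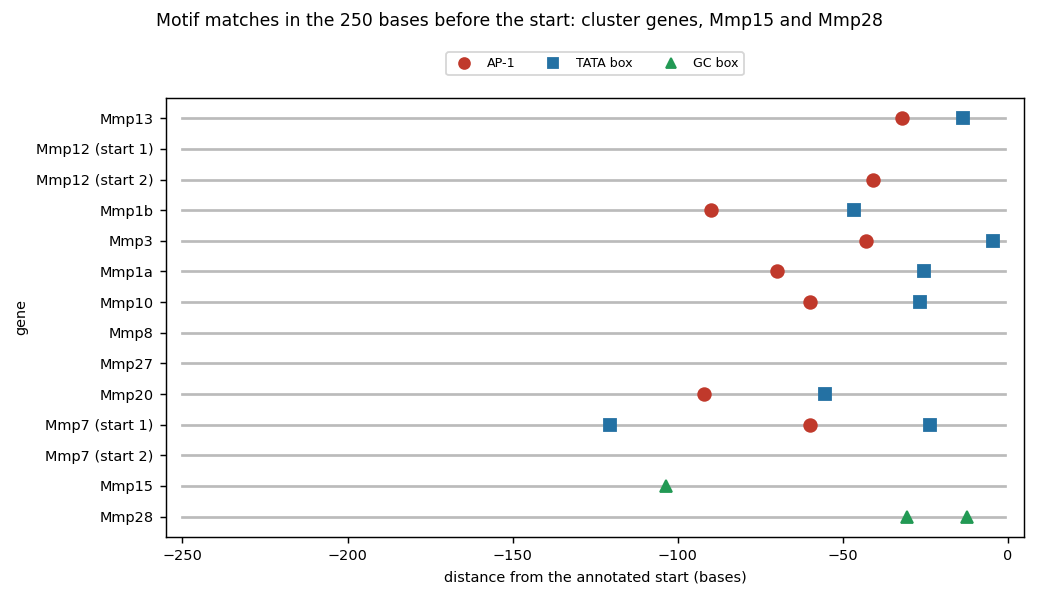
Motif matches in the 250 bases before each annotated start, for the 10 genes of the chromosome 9 cluster in order along the chromosome and for Mmp15 and Mmp28; the x axis is the distance from the start in bases. Circles mark AP-1, squares TATA and triangles GC box matches: the AP-1 matches of cluster genes lie between positions -95 and -29, and Mmp8 and Mmp27 have none.

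Total counts per library lay between 15748396 and 26943611, and 3 counts, taken as the floor, were worth 0.116 to 0.198 CPM, which covers counting error only. CPM are counts per 1000000 after TMM scaling, and levels of different genes were compared only as CPM per kb of exon. Trp53 was at 106 and 131 CPM in TPM, 78.5 and 70.2 CPM in TPMCa, 33.2 and 55.1 CPM in TPMR1 and 38.3 and 36.9 CPM in TPK. Pik3r1 was at 101 and 51.3 CPM in TPMR1, against 99.6 and 188 CPM in TPM. Pik3ca was at 89.9 and 83.3 CPM in TPMCa, against 76.6 and 60.9 CPM in TPM. Myc was at 772 and 1767 CPM in TPM and at 3075 and 324 CPM in TPMCa. It was at 606 and 466 CPM in TPMR1 and at 154 and 92.8 CPM in TPK. A count over the whole gene does not show an edit. Summed over 6 general epithelial markers, the level was 5498 and 2941 CPM in TPM and 3236 and 4963 CPM in TPK, but 73.3 and 23.7 CPM in TPMCa and 6.47 and 27.4 CPM in TPMR1, and all 6 markers differed among the models by edgeR's quasi-likelihood test. TPMR1 replicate 1 stood apart: it was the lowest of the 8 libraries for 7 of 10 marker lists, with fibroblast markers at 892 CPM against 2461 to 16718 CPM in the other libraries and neutrophil markers at 15.7 CPM against 296 to 2490 CPM. These are 9 markers without Ltf, left out after its values were seen because it alone gave 8456 and 6827 CPM in TPK and, like the epithelial markers, was at most 58.8 CPM in TPMCa and TPMR1. In bulk samples, fewer cells of a type and less RNA per cell cannot be told apart.

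TPMR1 replicate 1 was also the library with the least protease RNA. Members took 0.055% of its counts, against 0.126 to 0.262% in the others. It was the lowest of all 8 libraries for 24 of the 40 tested members (60%, against 20.8% of all genes tested), and lower than TPMR1 replicate 2 for 35 of 40 (87.5%, against 48.7%). At the median, replicate 2 exceeded replicate 1 by 1.94 on the log2 CPM scale for the members and by 0 for all genes tested. Timp1, Timp3, Mmp19, Adamts15 and Mmp7 were the 5 tested members that were not lower in replicate 1. The replicates of TPMR1 were more than 4-fold apart for 21 of 40 members (52.5%, against 17% of all genes), compared with 2 in TPM (4.72% of all genes), 5 in TPMCa (8.14%) and 10 in TPK (6.12%).

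By level per length, Timp2 led the families with a mean of 75.4 CPM per kb over the 8 libraries. Mmp2 followed at 53.9, Timp1 at 50.2, Mmp14 at 39.8, Adamts1 at 27.7 and Mmp15 at 18.9 CPM per kb. Library ranges of these neighbours overlapped, from 25.1 to 156 CPM per kb for Timp2, from 6.25 to 110.2 for Mmp2 and from 20.7 to 174 for Timp1, so that their order is not resolved. Mmp2, Mmp14 and Mmp15 together made up between 51.3 and 65.1% of the summed Mmp level per length in every library. At the other end, Timp4 had a mean of 0.07 CPM per kb.

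**Figure D2:**
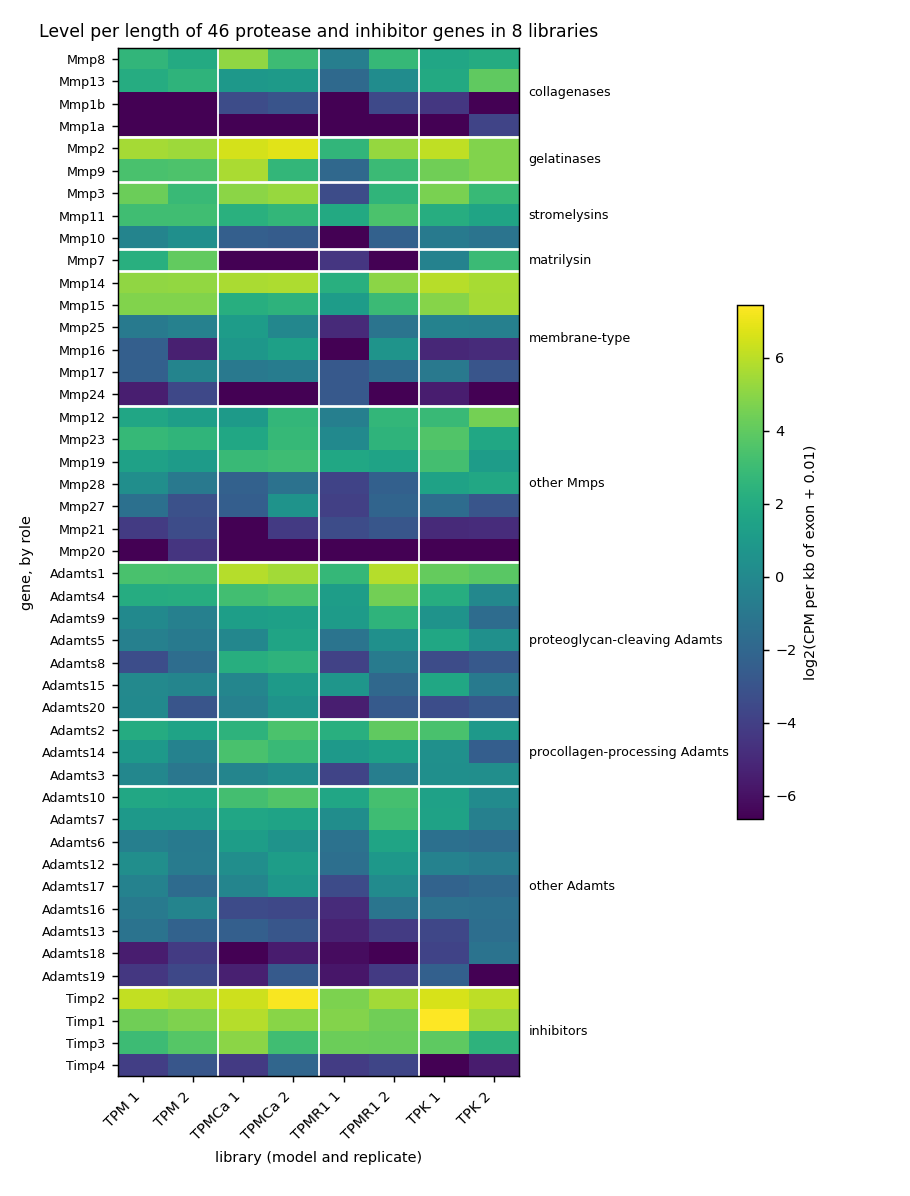
Level of each of the 46 members (rows, grouped by role) in each of the 8 libraries (columns), as log2 of CPM per kb of exon plus 0.01. Timp2, Mmp2, Timp1 and Mmp14 form the brightest rows, and TPMR1 replicate 1 is the darkest column for 24 of the 40 tested members.

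Summed levels separated the families. Mmps summed to 178 and 172 CPM per kb in TPM, 289 and 258 in TPMCa, 23.8 and 128 in TPMR1, and 250.3 and 221 in TPK. Both TPMCa and both TPK libraries lay above TPM, and both TPMR1 libraries lay below. Adamts genes summed to 34.2 and 28.7 CPM per kb in TPM, 110.5 and 112 in TPMCa, 25.2 and 134 in TPMR1, and 50.6 and 24.9 in TPK. Only TPMCa had both libraries clear of the TPM range, since the TPMR1 and TPK libraries lay on either side of it. Timps summed to 99.8 and 99.5 CPM per kb in TPM, 174 and 196 in TPMCa, 72.9 and 84.0 in TPMR1, and 287 and 113 in TPK. The ratio of the Mmp sum to the Timp sum was 1.79 and 1.73 in TPM, 1.66 and 1.31 in TPMCa, 0.326 and 1.52 in TPMR1, and 0.872 and 1.95 in TPK. It was lower than in TPM in both libraries of TPMCa and of TPMR1, while the TPK libraries lay on either side. With 2 libraries against 2, an exact permutation test cannot go below p = 0.333, so no test of these sums was run.

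**Figure D3:**
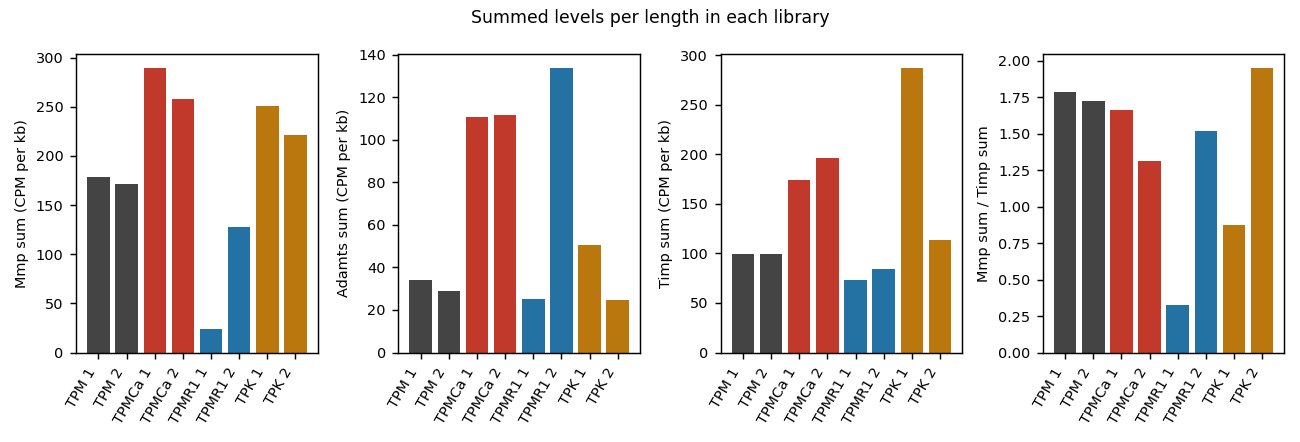
Sums over the 23 Mmp, 19 Adamts and 4 Timp genes in CPM per kb of exon, and the ratio of the Mmp sum to the Timp sum; each bar is 1 library. The Adamts sum is near 111 CPM per kb in both TPMCa libraries, while the TPMR1 libraries are at 25.2 and 134.

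The first question was which members differ among the 4 models at all. By edgeR's quasi-likelihood test with Benjamini-Hochberg adjustment over all genes, Mmp15 (adjusted p = 0.044) and Mmp28 (adjusted p = 0.049) differed, which is 2 of 40 members (5%) against 7.32% of all genes tested. A further 7 had an unadjusted p under 0.05: Mmp7, Mmp13, Adamts8, Adamts10, Adamts14, Timp1 and Timp2, so that 9 of 40 members stood at this threshold against 27.9% of all genes. Both shares are below the background. Both calls were lost when any 1 library of TPM, TPMCa or TPK was left out and with library size alone, when 0 members were called. Mmp28 alone was also lost with the size factors of DESeq2, a filter of 1 CPM and the replicate block.

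Mmp15, a membrane-type metalloproteinase, was the most abundant of the 4 members in which TPK exceeded TPMCa and TPMR1. It was at 148 and 149 CPM in TPM, 24.1 and 29.9 CPM in TPMCa, 11.96 and 42.4 CPM in TPMR1, and 156 and 254 CPM in TPK. Every TPM and TPK library was above every TPMCa and TPMR1 library. The log2 fold change of TPK against the mean of TPMCa and TPMR1 was 2.92 ± 0.47 (SE; adjusted p = 0.011 by edgeR). Against TPM, the log2 fold change of Mmp15 was -2.46 ± 0.59 in TPMCa and -2.45 ± 0.59 in TPMR1, and neither passed (adjusted p = 0.078 and 0.065 by edgeR). DESeq2 called both differences, with adjusted p = 0.0019 and 0.0016, and the adjusted p over all alternatives ran from 0.0019 to 0.297 for TPMCa and from 0.0016 to 0.24 for TPMR1. Mmp15 made up 44.4 and 44.0% of the level per length of Mmp14 plus Mmp15 in TPM, 8.08 and 9.65% in TPMCa, 31.8 and 19.6% in TPMR1 and 32.2 and 49.3% in TPK. The gene lies on chromosome 8 (GRCm38, 95352268 to 95375080).

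Mmp28 (epilysin) is known from keratinocytes and other epithelia. It was at 4.70 and 1.94 CPM in TPM, 0.76 and 1.5 CPM in TPMCa, 0.23 and 0.72 CPM in TPMR1, and 10.7 and 13.6 CPM in TPK. No models overlapped: TPK was highest, TPM came next, and TPMCa and TPMR1 were nearest to each other, at 0.76 against 0.72 CPM. TPK exceeded the mean of TPMCa and TPMR1 by 4.04 ± 0.66 on the log2 scale (adjusted p = 0.012 by edgeR). Compared with TPM, the log2 fold change of TPK was 1.87 ± 0.78 and did not pass (adjusted p = 0.694 by edgeR). Of the Mmp28 exons (chromosome 11, 83440768 to 83463071), 12% overlap 1700020L24Rik on the other strand. That gene was at 11.5 and 7.32 CPM in TPK and between 0.39 and 3.19 CPM in the other models. Whether counting used strand is not given in the sources used here, so reads in the overlap cannot be assigned with certainty.

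Mmp7 (matrilysin), which is made by glandular epithelium, had 0 counts in both TPMCa libraries and 1 and 0 counts in TPMR1. It was at 5.12 and 17.5 CPM in TPM and at 0.80 and 8.17 CPM in TPK. Measured against the floor of 3 counts in each library, Mmp7 was at least 63.4-fold lower in TPMCa and at least 80.0-fold lower in TPMR1 than in TPM, and TPK was at least 28.1-fold above their mean, a bound of 5.0-fold for TPK replicate 1 alone. The difference of TPK from the mean of TPMCa and TPMR1 passed (adjusted p = 0.021 by edgeR), while TPMCa against TPM (adjusted p = 0.065) and TPMR1 against TPM (adjusted p = 0.060) missed the threshold by edgeR and passed by DESeq2 (1.67e-05 and 8.88e-05). Over the alternatives, the adjusted p lay between 1.67e-05 and 0.211 for TPMCa and between 8.88e-05 and 0.186 for TPMR1. The overlapping antisense gene AV064505 had 0 CPM in 7 libraries and 0.07 CPM in TPK replicate 2.

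Mmp13, a collagenase, was at 11.3 and 15.4 CPM in TPM, 4.88 and 5.51 CPM in TPMCa, 0.74 and 3.0 CPM in TPMR1, and 10.1 and 43.0 CPM in TPK. All TPM and TPK libraries were above all TPMCa and TPMR1 libraries, as for Mmp15, Mmp28, Mmp7 and Mmp10. These were 5 of 40 members (12.5%, against 14.8% of all genes), and the reverse order held for Adamts9 and Adamts14 (5%, against 10%). The log2 fold change of TPK against the mean of TPMCa and TPMR1 was 3.09 ± 0.71 (adjusted p = 0.034 by edgeR), and 1.70 with an adjusted p of 0.324 without TPK replicate 2. TPMR1 fell by 2.84 ± 0.91 against TPM on the log2 scale, with an adjusted p of 0.126 by edgeR and of 0.012 by DESeq2, in a range of 0.012 to 0.362 over the alternatives.

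These 4 members, all higher in TPK, were the calls of edgeR in TPK against the mean of TPMCa and TPMR1, 4 of 40 (10%) against 10.3% of all genes tested in that direction. In the other direction 0 of 40 members passed, against 4.06% of all genes, and 7 of 40 had an unadjusted p under 0.05 with a log2 fold change beyond 1 (against 9.71%). At that limit 5 members were higher (12.5%, against 15.5%). DESeq2 called 11 members (27.5%, against 28.4% of all genes), 5 higher and 6 lower. The general epithelial markers given above moved with the same models, and so did the 6 squamous markers, which summed to 4023 to 19778 CPM in TPM and TPK and to 1.24 to 11.5 CPM in TPMCa and TPMR1. Their part in the differences of Mmp7, Mmp13, Mmp15 and Mmp28 was not tested. The calls of Mmp7, Mmp13, Mmp15 and Mmp28 were all lost without TPMCa replicate 1 and without TPK replicate 2. Mmp28 was lost without TPK replicate 1, and Mmp7 and Mmp13 without TPMCa replicate 2. Mmp13 was also lost when either TPM library was left out. All 4 were kept when either TPMR1 library was left out, where more members and more of all genes were called. A fit of only the models compared kept Mmp7, Mmp15 and Mmp28 and lost Mmp13. Over the alternatives, the log2 fold change ran from 1.70 to 3.78 for Mmp13 and from 2.53 to 3.51 for Mmp15. For Mmp28 it ran from 3.74 to 4.54. Across all 40 tested members the median log2 fold change was 0.14, against -0.00 for all genes, with 21 higher and 19 lower.

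**Figure D4:**
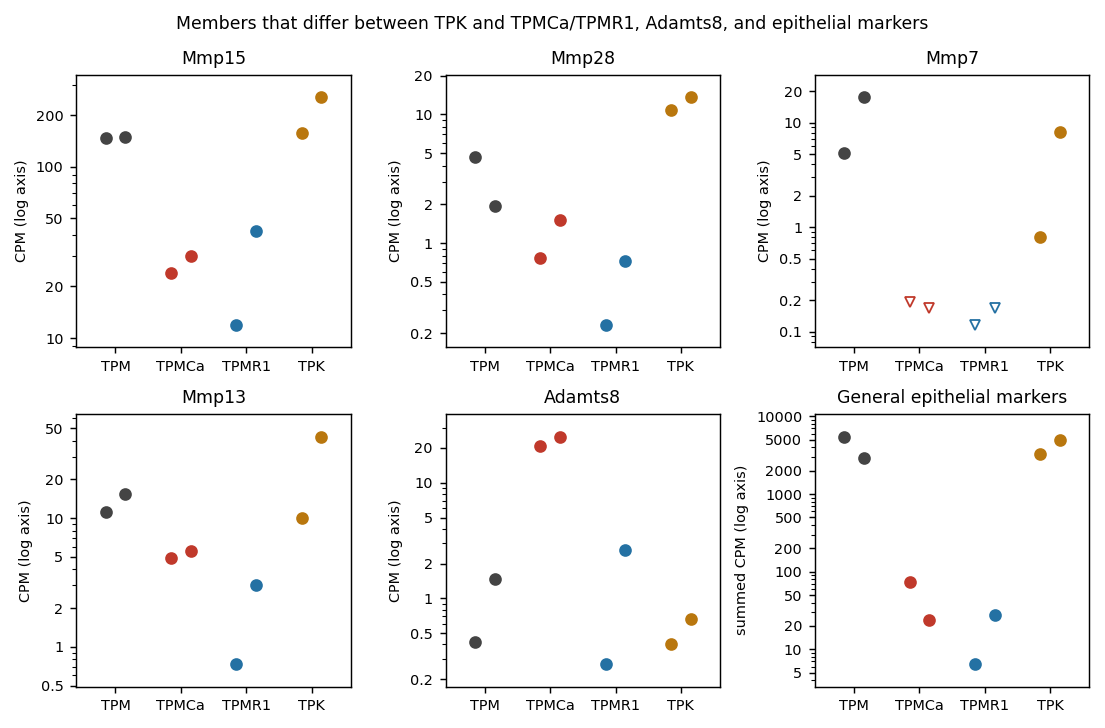
CPM in each library (log axes, 1 point per library) for Mmp15, Mmp28, Mmp7, Mmp13 and Adamts8, and the summed CPM of 6 general epithelial markers; open triangles are libraries with 3 counts or fewer, drawn at the level of 3 counts. Mmp15, Mmp28, Mmp7, Mmp13 and the epithelial markers have every TPM and TPK library above every TPMCa and TPMR1 library, and Adamts8 is highest in TPMCa.

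The members that were lower in TPK did not pass the test. Adamts14, which trims procollagen, had a log2 fold change of -2.57 ± 0.86 (adjusted p = 0.093 by edgeR), with 6.86 and 0.92 CPM in TPK. Adamts10, which binds fibrillin microfibrils, was at 28.6 and 25.6 CPM in TPM, 76.3 and 100.1 CPM in TPMCa, 26.8 and 80.0 CPM in TPMR1, and 21.7 and 9.10 CPM in TPK. TPK was the lowest model in both libraries, and its log2 fold change against the mean of TPMCa and TPMR1 was -2.16 ± 0.57 (adjusted p = 0.051 by edgeR). It passed by DESeq2 and under 5 further alternatives, with adjusted p from 0.0011 to 0.285 over all of them. Mmp16, a membrane-type enzyme, had 3 counts in each TPK library, against 14.9 and 22.3 CPM in TPMCa and 0 and 13.4 CPM in TPMR1, where replicate 1 had no count. Relative to the floor it was at least 68.5-fold lower in TPK than the mean of TPMCa and TPMR1 together, a value that rests on 3 of their 4 libraries.

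Mutant Pik3ca on the TPM background was the comparison in which most members were higher. In TPMCa against TPM, 31 of the 40 tested members had a positive log2 fold change, with a median of 0.95, whereas the median of all genes was -0.01. Both TPMCa libraries lay above both TPM libraries for 21 members (52.5%, against 29.1% of all genes) and below for 8 (20%, against 32.2%). No member passed the adjusted threshold of edgeR (0 of 40, against 3.48% of all genes, 0.466% higher and 3.02% lower). At an unadjusted p under 0.05 there were 8 (20%, against 22.1%), all with a log2 fold change beyond 1. Adamts1, Adamts8, Adamts10, Adamts14 and Mmp19 were higher (12.5%, against 7.28% of all genes past both limits) and Adamts16, Mmp7 and Mmp15 lower (7.5%, against 11.7%). Of the Mmp19 exons, 22.3% overlap Tmem198b on the other strand, which was at 6.92 to 12.3 CPM. For Adamts8, 10.6% of exons overlap Gm29724 on the other strand. DESeq2 called 5 (12.5%, against 16% of all genes): Adamts1, Adamts8 and Adamts14 higher, Mmp7 and Mmp15 lower. A fit of the 4 libraries compared called 6 of 40 (against 8.35%), these 5 and Adamts10. Macrophage markers summed to 1184 and 5039 CPM in TPMCa against 1025 and 503 CPM in TPM, and fibroblast markers to 8580 and 16718 CPM against 6424 and 2461 CPM. Endothelial markers summed to 409 and 538 CPM against 132 and 120 CPM, with 5 of 6 above TPM in both TPMCa libraries, and to 157 and 625 CPM in TPMR1. The part of these cell types in the shift was not tested.

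Proteoglycan-cleaving Adamts genes had positive log2 fold changes in TPMCa for 7 of 7, with a median of 1.53 (-0.01 for all genes). For Adamts15 and Adamts20, the TPMCa libraries overlapped those of TPM. The summed level of the class was 76.7 and 71.3 CPM per kb in TPMCa against 18.4 and 17.0 in TPM. Adamts1 alone made up 58.1 and 45.6 CPM per kb of the TPMCa sums and 10.4 and 10.1 of the TPM sums. Adamts1, the most abundant of the class, was at 55.1 and 53.5 CPM in TPM, 308 and 242 CPM in TPMCa, 35.4 and 315 CPM in TPMR1, and 91.0 and 75.2 CPM in TPK. Its log2 fold change in TPMCa was 2.34 ± 0.87 (adjusted p = 0.183 by edgeR and 0.0058 to 0.511 over the alternatives). One TPMR1 library thus lay at the level of TPMCa and the other below TPM. Adamts8, an aggrecan-cleaving enzyme that also restrains vessel growth, showed the largest change in this group. Its level was 0.42 and 1.49 CPM in TPM, 20.9 and 25.1 CPM in TPMCa, 0.27 and 2.61 CPM in TPMR1, and 0.40 and 0.66 CPM in TPK. Every other library had at most 2.61 CPM, and TPMCa exceeded TPM by 4.58 ± 1.18 on the log2 scale (adjusted p = 0.090 by edgeR, 0.00031 to 0.385 over the alternatives). Adamts9, which cleaves versican, was at 15.5 and 10.5 CPM in TPM, 35.8 and 39.2 CPM in TPMCa, 31.9 and 86.1 CPM in TPMR1, and 22.3 and 4.55 CPM in TPK. Of its exons, 9.18% overlap A730049H05Rik on the other strand.

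All 3 procollagen-processing genes, Adamts2, Adamts3 and Adamts14, had positive log2 fold changes in TPMCa, with a median of 1.23. Adamts3 overlapped, at 4.62 and 6.46 CPM in TPMCa against 4.94 and 2.57 CPM in TPM. Adamts2, the procollagen I N-proteinase, was at 37.3 and 27.2 CPM in TPM, 51.0 and 100.6 CPM in TPMCa, 43.5 and 151 CPM in TPMR1, and 98.9 and 17.5 CPM in TPK. It lay above TPM in both libraries of TPMCa and of TPMR1, and the TPK libraries lay on either side. Adamts14 was at 9.75 and 3.89 CPM in TPM and at 53.8 and 39.2 CPM in TPMCa. This difference passed by DESeq2 and did not by edgeR (log2 fold change 2.77 ± 0.92, adjusted p = 0.152). Over the alternatives its log2 fold change ran from 2.25 to 3.59. In TPMR1, Adamts14 was at 9.95 and 13.1 CPM.

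TPMR1, with the sgRNA against Pik3r1 on the TPM background, had a median log2 fold change against TPM of -0.56 over the 40 tested members and of 0.03 over all genes. Both TPMR1 libraries lay below both TPM libraries for 14 members (35%, against 28.4% of all genes) and above for 5, Adamts2, Adamts9, Adamts14, Mmp19 and Timp3 (12.5%, against 24.5%). Again 0 of 40 passed by edgeR (against 5.58% of all genes, 1.08% higher and 4.5% lower) and 7 had an unadjusted p under 0.05 (17.5%, against 23.1%), each with a log2 fold change beyond 1. Those were Mmp7, Mmp10, Mmp13, Mmp15, Mmp28 and Adamts13, all lower (15%, against 12.6%), and Adamts9, higher (2.5%, against 7.53%), while DESeq2 called 6 (15%, against 18.1%), these without Mmp10. The Mmp classes had negative medians in all 6 roles, from -0.73 for the remaining Mmps to -2.13 for the stromelysins, apart from Mmp7, whose fitted value is no measure of size. Proteoglycan-cleaving (0.57), procollagen-processing (0.76) and other (0.23) Adamts classes had positive medians. The difference between the Mmp and Adamts medians was not tested. The number called was 1 of 41 (Adamts1, higher) without TPMR1 replicate 1, against 4.36% of all genes, and 8 of 42 (all lower) without TPMR1 replicate 2, against 12.3%.

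**Figure D5:**
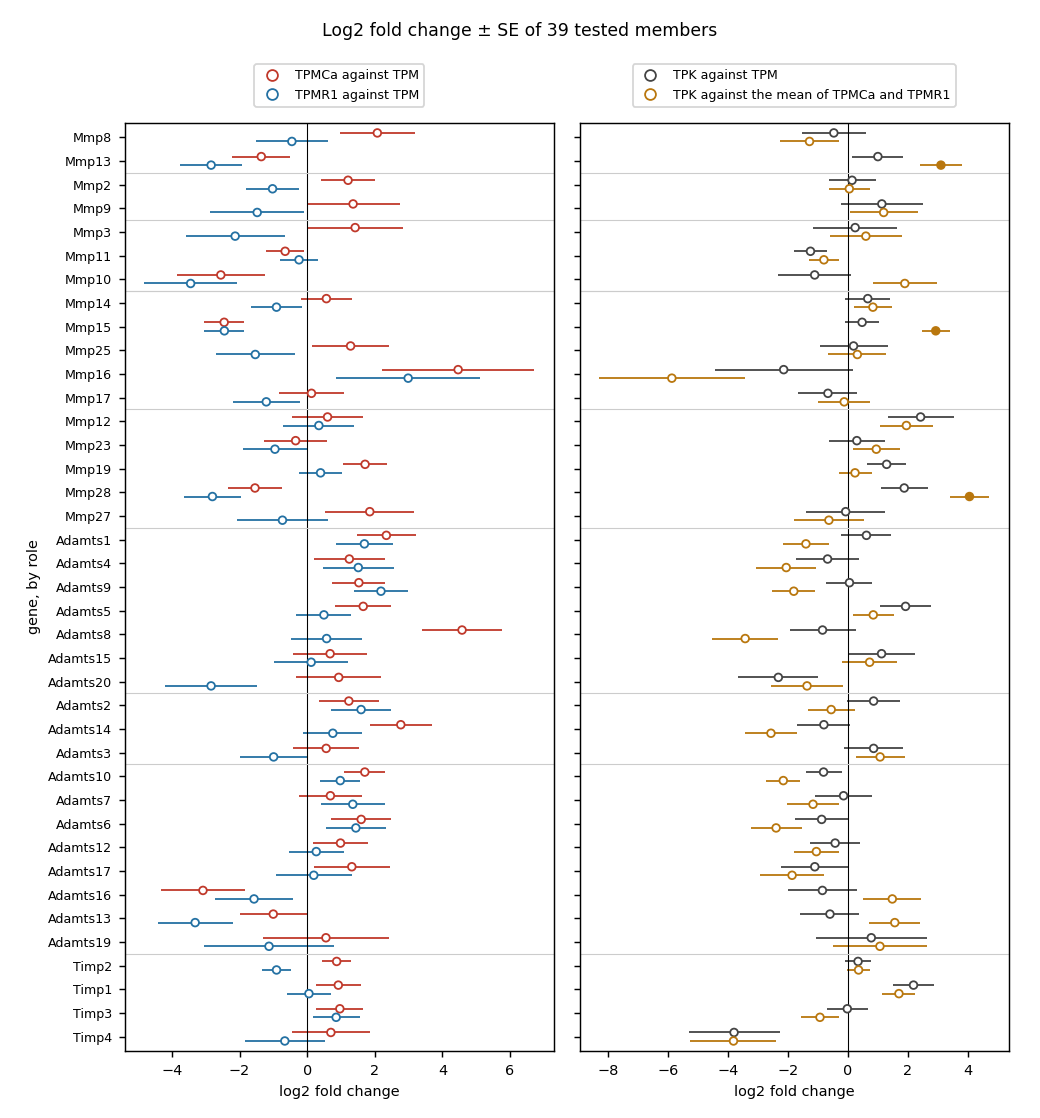
Log2 fold changes with their standard errors from edgeR for 39 tested members (Mmp7, at 0 counts in several libraries, is left out), in TPMCa and TPMR1 against TPM on the left and in TPK against TPM and against the mean of TPMCa and TPMR1 on the right. Filled points have an adjusted p under 0.05: Mmp13, Mmp15 and Mmp28, all in the comparison with the mean of TPMCa and TPMR1.

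TPMR1 and TPMCa share the TPM background and were also compared with each other. Both TPMR1 libraries lay below both TPMCa libraries for 17 of 40 members (42.5%, against 17.7% of all genes) and above for 0 (against 18.8%), with a median log2 fold change of -1.21 for the members and 0.01 for all genes. None passed by edgeR, where 0% of all genes did, and 4 had an unadjusted p under 0.05 (10%, against 11.8%): Adamts8, Adamts20, Mmp2 and Timp2, all lower by more than 1 on the log2 scale (against 5.88% of all genes, with 0 higher against 4.64%). DESeq2 called Adamts8 and Timp2 (5%, against 4.86%). Without TPMR1 replicate 2, edgeR called 10 of 42 members tested, all lower (against 8.24% of all genes), and without TPMR1 replicate 1 it called 0 (against 0%), so that these calls rest on replicate 1. Between these models, the fibroblast and macrophage marker sums were 892 and 6657 and 363 and 773 CPM in TPMR1, against 8580 and 16718 and 1184 and 5039 CPM in TPMCa, and their part in the difference was not tested.

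Mmp2, a gelatinase, and Mmp14 and Timp2, which act with it, were among the members whose TPMR1 and TPMCa libraries did not overlap, whereas those of the other gelatinase, Mmp9, did. Mmp2 was at 158 and 139 CPM in TPM, 313 and 372 CPM in TPMCa, 21.1 and 125 CPM in TPMR1, and 233 and 92.6 CPM in TPK. Mmp14, the membrane-type enzyme known to activate pro-Mmp2 together with Timp2, was at 204 and 209.7 CPM in TPM, 303 and 309.5 CPM in TPMCa, 28.4 and 192 CPM in TPMR1, and 363 and 289 CPM in TPK. Both genes were above TPM in each TPMCa library and below it in each TPMR1 library, an order seen for 5 of 40 members (12.5%, against 1.23% of all genes), and the opposite order in 0 (against 0.995%). TPMR1 replicate 2 was much closer to TPM than replicate 1 was. Mmp9, the gelatinase of neutrophils and other cells, was at 37.9 and 40.0 CPM in TPM, 177 and 22.8 CPM in TPMCa, 0.93 and 27.1 CPM in TPMR1, and 73.4 and 96.6 CPM in TPK. Mmp8, the neutrophil collagenase, was at 15.0 and 9.61 CPM in TPM, 84.1 and 19.8 CPM in TPMCa, 1.55 and 16.5 CPM in TPMR1, and 7.94 and 9.82 CPM in TPK. The TPMCa replicates differed more than 4-fold in both, with replicate 1 higher. With Ltf included, neutrophil markers summed to 2549 CPM in TPMCa replicate 1 and 301 CPM in replicate 2. This full sum was higher in TPK, at 9193 and 7539 CPM, and in TPM replicate 1, at 2782 CPM, than in any TPMCa library. Without Ltf (lactoferrin), the sum of the other 9 neutrophil markers was highest in TPMCa replicate 1, at 2490 CPM. That sum was lowest in TPMR1 replicate 1, at 15.7 CPM, and Mmp8 had the same highest and lowest libraries. Of the 9 markers, Cxcr2, Camp, Mpo and Elane were each highest in a TPK library instead. The part of neutrophils was not tested.

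Mmp3 (stromelysin 1), the most abundant stromelysin per length, was at 34.6 and 13.3 CPM in TPM, 57.4 and 70.4 CPM in TPMCa, 0.15 and 10.8 CPM in TPMR1, and 43.5 and 12.9 CPM in TPK. Both TPMCa libraries were above every other library, and the lowest was TPMR1 replicate 1. Mmp12, the macrophage elastase and most abundant of the remaining Mmps, was at 23.4 and 16.9 CPM in TPM, 14.8 and 46.4 CPM in TPMCa, 4.84 and 46.4 CPM in TPMR1, and 53.7 and 162 CPM in TPK. It was highest in TPK in both libraries, 2.42 ± 1.10 above TPM on the log2 scale without passing (adjusted p = 0.705 by edgeR). The library of each model with more Mmp12 had the higher macrophage marker sum in TPM, TPMCa and TPMR1 and the lower in TPK, at 3161 and 1800 CPM in TPK replicates 1 and 2, and the part of macrophages was not tested.

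TPK against TPM gave the smallest shift. The median log2 fold change of the 40 tested members was 0.01, as for all genes, with 20 higher and 20 lower. Both TPK libraries lay above both TPM libraries for 9 members (22.5%, against 24.4%) and below for 7 (17.5%, against 23.5%). No gene of the whole table passed by edgeR (0%), and 3 members had an unadjusted p under 0.05 (7.5%, against 7.17%). With log2 fold changes beyond 1, Mmp28 and Timp1 were higher (5%, against 2.32% of all genes) and Timp4 lower (2.5%, against 2.95%). DESeq2 called 0 of 40 members, against 1.54% of all genes.

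The 4 inhibitors differed in level and in pattern. Timp2, which takes part in Mmp2 activation and inhibits most Mmps, was at 277 and 232 CPM in TPM, 323 and 607 CPM in TPMCa, 97.9 and 173 CPM in TPMR1, and 381 and 259 CPM in TPK. Both TPMR1 libraries lay below and both TPMCa libraries above all TPM libraries. TPMR1 was below TPMCa by a log2 fold change of -1.78 ± 0.44, with an adjusted p of 0.364 by edgeR and of 0.012 by DESeq2 (0.012 to 0.811 over the alternatives). Timp1 was at 18.4 and 23.8 CPM in TPM, 52.1 and 27.7 CPM in TPMCa, 25.3 and 18.3 CPM in TPMR1, and 154 and 36.7 CPM in TPK. TPK lay above TPM by 2.18 ± 0.69 on the log2 scale (adjusted p = 0.668 by edgeR), and by 0.80 without TPK replicate 1, so this value rests on that library. Timp3, which is bound to the matrix and also inhibits Adamts proteases, was at 64.8 and 106 CPM in TPM, 263 and 71.2 CPM in TPMCa, 157 and 153 CPM in TPMR1, and 123 and 44.96 CPM in TPK. In TPMR1 both libraries were above TPM, whereas those of the other models were not, and 21.3% of its exons overlap Syn3 on the other strand, which had at most 7.98 CPM. Timp4 had 5 and 13 counts in TPM, 4 and 26 in TPMCa, 7 and 7 in TPMR1, and 0 and 1 in TPK, where it was at least 2.83-fold lower than in TPM when TPK is set to the floor of 3 counts per library.

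Genes that act with these proteases were counted by the same test over lists of other members of the pathway. Among the 4 models, 0 of 6 tested genes of plasminogen activation, 1 of 10 other inhibitors and activators, 0 of 6 ADAMTS-like genes, 1 of 9 ADAM sheddases, 1 of 10 lysosomal cathepsins, 0 of 13 substrates and 0 of 11 AP-1 and Ets factors differed by edgeR, against 7.32% of all genes. Unadjusted p under 0.05 was reached by 2 genes of plasminogen activation, 5 other inhibitors and activators, 2 ADAMTS-like genes, 2 ADAM sheddases, 3 cathepsins, 6 substrates and 3 AP-1 and Ets factors (27.9% of all genes). In TPK against the mean of TPMCa and TPMR1, 1 ADAMTS-like gene (Adamtsl5) and 1 ADAM sheddase (Adam28) were higher, against 10.3% of all genes, and 1 inhibitor or activator (Spock2), 1 cathepsin (Ctsf) and 1 substrate (Acan) were lower, against 4.06%. Against TPM, Adam28 was lower in TPMCa and in TPMR1 and Spock2 was higher in TPMR1, and 0 genes of these lists passed in TPK against TPM or in TPMR1 against TPMCa. Spock2, a proteoglycan that binds to the matrix, was the inhibitor or activator that differed, at 7.47 and 2.63 CPM in TPM, 70.4 and 24.2 CPM in TPMCa, 50.1 and 98.7 CPM in TPMR1, and 1.09 and 0.53 CPM in TPK. TPK fell by 6.18 ± 0.89 on the log2 scale against the mean of TPMCa and TPMR1 (adjusted p = 0.0079 by edgeR). Adam28, a sheddase, was at 72.4 and 26.3 CPM in TPM and at 69.1 and 556 CPM in TPK, against 0.04 to 0.25 CPM in the TPMCa and TPMR1 libraries (adjusted p = 0.014 among the 4 models by edgeR). As for Mmp7, every TPM and TPK library lay above every TPMCa and TPMR1 library. Ctss (cathepsin S) was the cathepsin that differed, at 108 and 68.5 CPM in TPM, 226 and 499.5 CPM in TPMCa, 57.8 and 64.6 CPM in TPMR1, and 337 and 262 CPM in TPK. Acan, the substrate aggrecan, was at 6.02 and 6.06 CPM in TPM, 36.0 and 3.17 CPM in TPMCa, 837 and 32.2 CPM in TPMR1, and 0 CPM in both TPK libraries. Its highest level was in TPMR1 replicate 1, the library that was lower than TPMR1 replicate 2 for 35 of 40 members.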

How the data were processed

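Raw counts per gene symbol of the 8 libraries (2 per model) were deposited by the authors, who aligned trimmed reads to mm10 with STAR and analyzed these models with DESeq2; the counter, its annotation and its use of strand are not given in the sources used here. The deposited table of normalized values was not used. Models and replicates were taken from the sample titles; the columns headed TPMS were read as TPM. Counts per library lay between 15748396 and 26943611, so that 3 counts equal 0.116 to 0.198 CPM.

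Counts were scaled by TMM and filtered with filterByExpr in edgeR 4.0.16 (R 4.3.3, limma 3.58.1), leaving 15875 genes. All 8 libraries entered a single quasi-likelihood fit by model (common dispersion 0.269). Benjamini-Hochberg adjustment was made over all genes, with a threshold of 0.05. Background percentages are over the same genes. Log2 CPM used a prior count of 2. Where all libraries of a model had at most 3 counts, folds are bounds against 3 counts in each library. The level per length is CPM per kb of the exon union in GENCODE M21 (GRCm38), in which all 46 members were found, and promoters are from RefSeq (GRCm38.p6). The edgeR fit and its comparison of TPK with the mean of TPMCa and TPMR1 were also run on simulated counts with known differences.

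Alternatives were DESeq2 1.42.0, its size factors within edgeR, library size alone, no filter, a filter of 1 CPM in 2 libraries, the unadjusted threshold of the study (p under 0.05 and log2 fold change beyond 1), a replicate block, a fit of only the models compared, and leaving out each library. Full values are given for the Timps, for members that differ among the models, for the member of highest level per length in each role and for other members the comparisons turn on; of each further list, up to 3 genes are named. Members, lists and tests were chosen with earlier results of these data known. Some genes edited in these models are not reported here.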

Additional observations from a re-analysis of the deposited data

Results flagged for a closer look

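For Mmp2, Mmp3, Mmp14, Mmp25 and Timp2, every TPMCa library was above both TPM libraries and every TPMR1 library was below them, the TPM libraries being shared by both comparisons. These were 5 of 40 tested members (12.5%), against 1.23% of all genes, and the opposite order was found for 0 members, against 0.995%. The difference itself, TPMR1 against TPMCa, had a log2 fold change of -2.23 for Mmp2, -3.55 for Mmp3, -1.48 for Mmp14, -2.82 for Mmp25 and -1.78 for Timp2, with adjusted p of 0.406, 0.44, 0.484, 0.434 and 0.364 by edgeR's quasi-likelihood test, so that none of the 5 passed. Over the alternatives the adjusted p ran from 0.012 to 0.822, and it was under 0.05 once for each: for Timp2 by DESeq2 and for the other 4 without TPMR1 replicate 2. TPMR1 replicate 1, with low marker sums for 7 of 10 cell type lists, was the lower of the TPMR1 libraries for all 5, and what it owes to those cell types was not tested.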

How the results depend on the processing

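The number of members called changed with most settings. Of 493 refits of 33 named log2 fold changes, 1 changed sign, that of Timp3 in TPMCa against TPM. It was at -0.24 without TPMCa replicate 1 and 1.62 without TPMCa replicate 2, against 0.96 with both. The named changes are mostly large ones and the refits reuse these libraries, so the signs say little about other members or other tumors. Among the 4 models, where no single fold change can be limited, 9 members had an unadjusted p under 0.05 by edgeR. By the unadjusted threshold of the study there were 8 in TPMCa against TPM, 7 in TPMR1 against TPM and 3 in TPK against TPM. There were 4 in TPMR1 against TPMCa and 12 in TPK against the mean of TPMCa and TPMR1. DESeq2 called 11, 5, 6, 0, 2 and 11 in the same order, where edgeR called 2, 0, 0, 0, 0 and 4. Of all genes, DESeq2 called 30, 16, 18.1, 1.54, 4.86 and 28.4% in that order, and edgeR 7.32, 3.48, 5.58, 0, 0 and 14.4%. Among the 4 models, edgeR called 1 member with the size factors of DESeq2, 0 with library size alone, 4 without a filter and 1 with a filter of 1 CPM. These settings called 7.3, 7.04, 7.48 and 7.69% of all genes. Without a filter it called 1 member in TPMCa against TPM and 2 in TPMR1 against TPM, and a fit of only the models compared called 6 in TPMCa against TPM. Leaving out 1 library gave 0 to 14 members among the 4 models, 0 to 5 in TPMCa against TPM, 0 to 8 in TPMR1 against TPM, 0 in TPK against TPM, 0 to 10 in TPMR1 against TPMCa and 0 to 12 in TPK against the mean of TPMCa and TPMR1, the highest counts all arising without a TPMR1 library; a lone library was assumed to vary like the others. Of 623 counts of the other pathway lists under the alternatives, 136 moved by more than 1.5 times or to or from 0. What makes the counts change was not tested. The mean ratio of the Mmp to the Timp sum was 2.27 in TPK and 1.89 in TPM by CPM, against 1.41 and 1.76 per length. The replicate block gave 2 members among the 4 models (against 3.97% of all genes) and 4 in TPK against the mean of TPMCa and TPMR1 (10.5%). It gave 0 in the other 4 comparisons (0 to 3.51%). Among the 4 models it called Adamts8 and Mmp15 in place of Mmp15 and Mmp28. Replicate numbers did not pair the libraries, as deviations from the model means correlated between -0.069 and -0.0082 across genes. With 2 libraries per model, a missed threshold does not show equal levels.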
